A study of Mus musculus with 4 samples.

Results

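The nicotinamide riboside kinase gene Nmrk2 and 9 further genes of NAD metabolism are described here across 4 RNA-seq libraries of mouse left ventricle. The 10 genes are Nmrk1, Nmrk2, Nampt, Nmnat1, Nmnat3, Nadsyn1, Nnmt, Cd38, Sirt1 and Sirt3, and they were taken by symbol from 17550 genes with a read in any library. All 10 had reads in every library. Nmrk2 was singled out because of its genotype difference in these same libraries, and the other 9 were added with their values known. Every value below is therefore a description, with no test. The mice were C57BL/6, 8 weeks old, and all had undergone experimental myocardial infarction 3 days before RNA was taken. The 4 groups were non-infarcted and infarcted ventricle of wild-type mice, and non-infarcted and infarcted ventricle of mice labelled Neil3-/-, that is, knockout mice for the DNA glycosylase gene Neil3. Each group was 1 library, so no spread between mice could be estimated. No sham-operated or uninjured ventricle was analysed here: the non-infarcted tissue also comes from hearts with an infarct.

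NAD carries electrons in energy metabolism and is also used up by enzymes that cleave it. Cells make it again from nicotinamide through Nampt, from nicotinamide riboside through the kinases Nmrk1 and Nmrk2, from nicotinic acid, or from tryptophan, and the Nmnat enzymes and Nadsyn1 complete these routes. Sirtuins, ADP-ribosyltransferases and glycohydrolases such as Cd38 consume NAD and release nicotinamide, which Nnmt methylates for removal. Nmrk2 is the kinase found mainly in striated muscle, and it is known for rising in stressed and failing ventricle while Nampt falls.

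Reads of the targeted gene went against the labels. Neil3 had 1.83 and 3.95 RPKM (reads divided by gene length and by the total of the library) in non-infarcted and infarcted wild-type ventricle. In the libraries labelled Neil3-/- it had 12 and 18.5 RPKM, which is 6.57-fold and 4.67-fold higher. Neil3 had 62 and 155 reads in non-infarcted and infarcted wild-type ventricle, which covered 63.4% and 73.4% of the gene model. The libraries labelled Neil3-/- had 391 and 763 reads, which covered 62.9% and 71.5%. In each region the higher read number came without higher coverage. Reads were not resolved along the gene, so whether they fall outside the deleted part was not tested. Every genotype direction below rests on the labels. Totals ran from 14.3 M to 18.2 M reads per library. All 12 cardiomyocyte markers examined had reads in every library. Intervals are exact 95% Clopper-Pearson intervals of read shares, cover counting error only, and say nothing of differences between mice.

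Nmrk2 and Nmrk1 encode kinases for the same reaction but stood at very different levels in these libraries, so their promoters are printed for comparison. The windows are from RefSeq on GRCm38.p6, 250 bases before to 50 bases after the gene start, 5′ to 3′ on the gene's strand. The deposited reads were mapped on another build, mm9, and no coordinate of that build is given. The Nmrk2 window is chr10:81201988-81202287 on the minus strand, and the Nmrk1 window is chr19:18631766-18632065 on the plus strand. Capitals mark matches to an E-box (CANNTG) or a TATA box (TATAAA) on either strand.
Nmrk2: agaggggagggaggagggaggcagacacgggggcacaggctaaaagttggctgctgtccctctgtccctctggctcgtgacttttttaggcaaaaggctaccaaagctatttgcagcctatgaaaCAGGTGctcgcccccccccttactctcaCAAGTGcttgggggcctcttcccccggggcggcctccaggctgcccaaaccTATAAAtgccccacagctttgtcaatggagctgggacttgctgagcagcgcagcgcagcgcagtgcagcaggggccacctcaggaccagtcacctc
Nmrk1: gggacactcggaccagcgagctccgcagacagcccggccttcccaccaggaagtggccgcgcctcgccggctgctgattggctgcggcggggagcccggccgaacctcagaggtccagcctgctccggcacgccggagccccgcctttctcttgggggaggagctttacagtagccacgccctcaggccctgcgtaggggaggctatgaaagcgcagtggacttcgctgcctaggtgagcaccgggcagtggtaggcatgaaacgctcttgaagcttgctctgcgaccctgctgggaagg
The Nmrk2 window held 2 E-boxes, which start 125 and 97 bases before the gene start, and 1 TATA box, which starts 46 bases before it. Of 32851 promoters in the table, 72.3% held an E-box and 13.6% held this TATA box. The Nmrk1 window held neither. Neither window held a GATA site (AGATAA, in 11.2% of promoters), a CArG box (1.63%) or a MEF2 site (3.19%). The Nmrk2 window had 60.7% GC and 8 CpG dinucleotides and the Nmrk1 window 67.3% and 23, against medians of 52.7% and 7 over all promoters. No motif overlapped another. These matches describe the letters only.

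Nmrk2 was high in wild-type ventricle and lower in both libraries labelled Neil3-/-. The gene (Entrez 69564, chromosome 10, 1840 bases in the deposited model) had 3107 reads in wild-type non-infarcted ventricle, which is 113 RPKM (109 to 117). In wild-type infarcted ventricle it had 3373 reads, or 106 RPKM (103 to 110). The library labelled Neil3-/- had 1704 reads and 64.8 RPKM (61.8 to 68.0) in non-infarcted ventricle, and 960 reads and 28.7 RPKM (26.9 to 30.5) in infarcted ventricle. The wild-type values lay close together, and no interval of either labelled knockout library reached them. Reads covered 96.5% to 99.9% of the gene model in all 4 libraries. Ranked by RPKM, Nmrk2 was gene 543 of 16286 listed in wild-type non-infarcted ventricle and gene 618 of 16446 in wild-type infarcted ventricle. It was gene 1000 of 16249 and gene 2662 of 16510 in the non-infarcted and infarcted libraries labelled Neil3-/-.

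**Figure D1:**
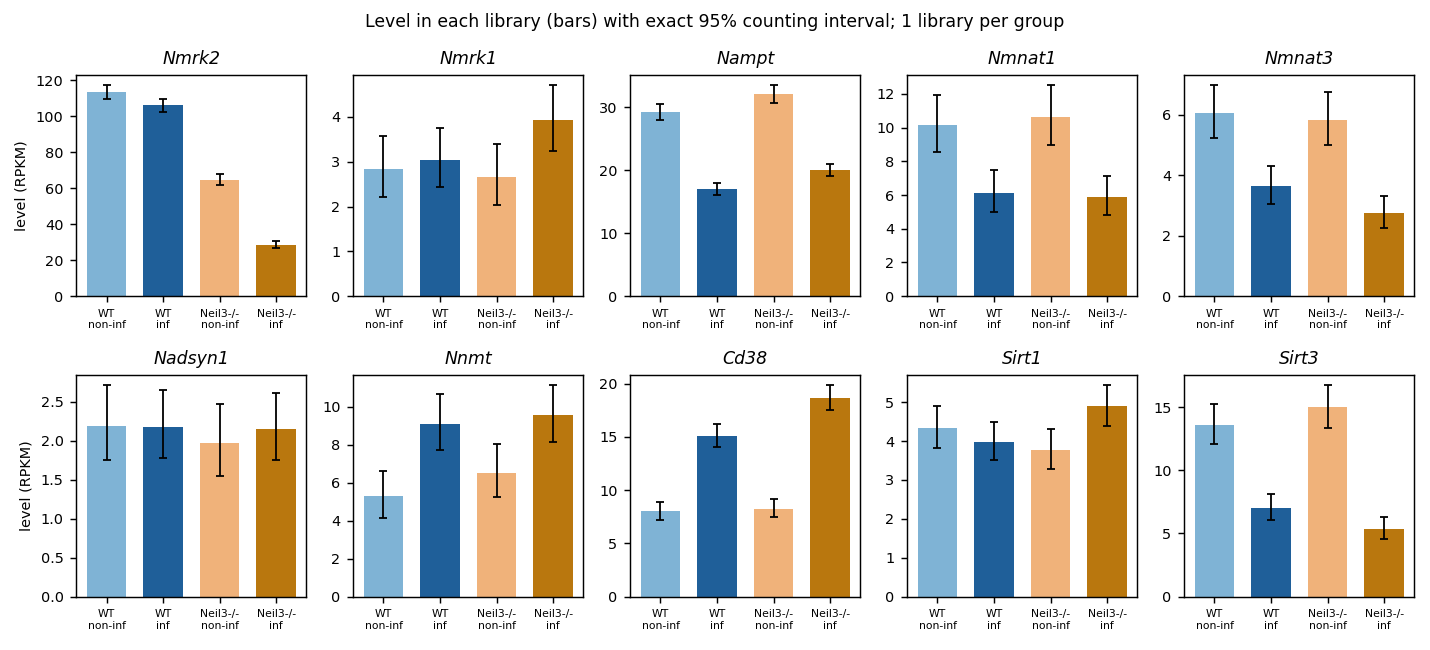
Level in RPKM of each of the 10 NAD metabolism genes in the 4 libraries, with bars for the 95% counting interval and 1 library per group. Nmrk2 runs from 113 RPKM in wild-type non-infarcted ventricle to 28.7 RPKM in the infarcted library labelled Neil3-/-, while Nadsyn1 stays between 1.97 and 2.19 RPKM.

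The infarct comparison for Nmrk2 differed between the genotypes as labelled. In wild type the infarcted to non-infarcted ratio was 0.937 (0.892 to 0.984), a small difference. Between the libraries labelled Neil3-/- it was 0.442 (0.408 to 0.479), or 2.26-fold lower in infarcted ventricle. The ratio of these infarct ratios was 0.472 (0.430 to 0.518, by a Poisson approximation on the log scale), the 24th lowest of 12716 genes compared. Between genotypes, Nmrk2 was 3.70-fold lower (3.45 to 3.98) in the infarcted library labelled Neil3-/-, the lowest ratio of 12464 genes on the log2(RPKM + 1) scale. In non-infarcted ventricle it was 1.75-fold lower, a ratio of 0.572 (0.539 to 0.607), the 41st lowest of 12226 genes. These comparisons share libraries: each library enters both an infarct and a genotype comparison.

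Cardiomyocyte marker levels differed between infarcted and non-infarcted ventricle, so Nmrk2 is set beside the cardiomyocyte markers. Their summed level was 33772 and 13873 RPKM in non-infarcted and infarcted wild-type ventricle, and 32790 and 9153 RPKM in the libraries labelled Neil3-/-. In bulk tissue, fewer cells of a type and less RNA per cell cannot be told apart. The markers' median infarct ratio was 0.367 in wild type (0.253 to 0.561 over 12 genes) and 0.263 between the libraries labelled Neil3-/- (0.172 to 0.401). Nmrk2 lay above all 12 markers in both infarct comparisons, by 2.56-fold and 1.68-fold against the median. Between genotypes the order was the opposite. The markers' median ratio was 0.651 in infarcted ventricle (0.560 to 0.901) and 0.955 in non-infarcted ventricle (0.883 to 1.16), and Nmrk2 lay below all 12 markers in both. It was 2.41-fold and 1.67-fold lower than the markers' median ratio there, in infarcted and non-infarcted ventricle respectively. Nmrk2 was chosen for its genotype difference, so nothing is read from its place below the markers. Scaled so that the markers' median ratio is 1, the infarct log2 ratio of Nmrk2 became 1.35 in wild type and 0.78 between the libraries labelled Neil3-/-, where its direction turned. The genotype log2 ratio in infarcted ventricle became -1.23, from -1.85. On that scaling the infarct ratios of Nampt, Nmnat1, Nmnat3 and Sirt3 also turn, to above 1 in both genotypes, so higher and lower below mean per library total.

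**Figure D2:**
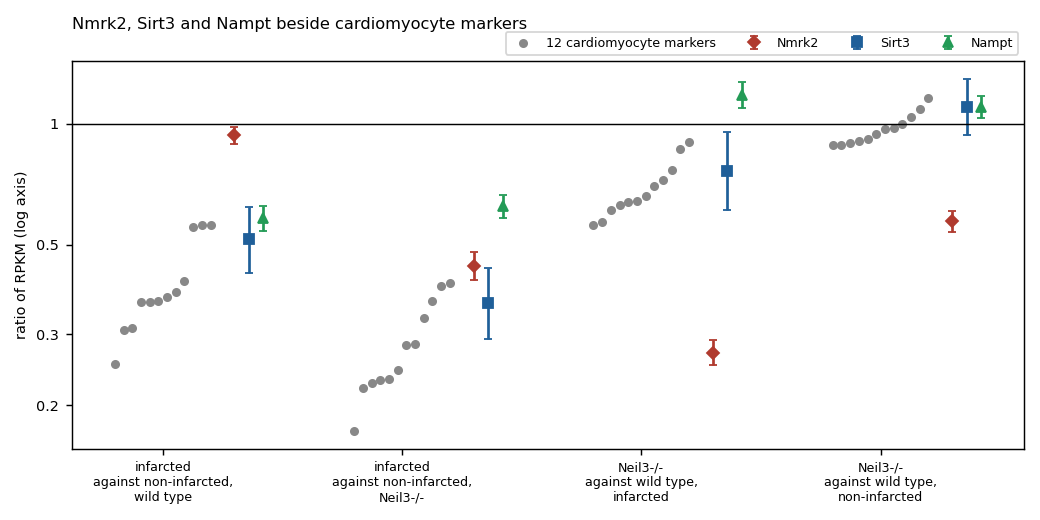
Ratio of RPKM (log axis) of Nmrk2 and other NAD metabolism genes beside the 12 cardiomyocyte markers in each comparison, with 1 library per group. Nmrk2 lies above every marker in both infarct comparisons and below every marker in both genotype comparisons, on which it was chosen.

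Other cell types also moved. Summed macrophage markers (10 of 10 found) were 424 and 1122 RPKM in non-infarcted and infarcted wild-type ventricle and 693 and 1551 RPKM in the libraries labelled Neil3-/-. All 10 were higher in the labelled knockout library in both regions. Fibroblast markers (8 of 8) summed to 1682 and 2262 RPKM in wild type and to 2144 and 3467 RPKM in the libraries labelled Neil3-/-. Neutrophil markers (6 of 7 found) summed to 28.9, 216, 25.5 and 254 RPKM in the same order of libraries, and endothelial markers (6 of 6) to 289, 467, 280 and 450 RPKM. Smooth muscle markers (5 of 5) summed to 203, 209, 201 and 283 RPKM. Lymphocyte markers (6 of 6) did not pass 5.55 RPKM, nor adipocyte markers (4 of 4) 4.26 RPKM, in sum in any library. Skeletal muscle markers (9 of 9), relevant because Nmrk2 is also a skeletal muscle gene, summed to 43.5, 24.5, 91.3 and 57.9 RPKM. The sums were higher in the libraries labelled Neil3-/-, opposite to Nmrk2, with Myl1 giving most of the sum and Myh4 at 0 reads in 3 libraries. Atrial markers (3 of 4) summed to 120, 2.52, 28.9 and 2.49 RPKM, with Sln at 0 in both infarcted libraries. In non-infarcted ventricle all 3 were lower in the library labelled Neil3-/-, as Nmrk2 was. In infarcted ventricle the atrial sums were near equal between genotypes, unlike Nmrk2. The part of these cell types in the values of the 10 genes was not tested.

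The neighbourhood of Nmrk2 was examined next. An antisense noncoding gene, 2310050B05Rik (Atcayos in RefSeq), overlaps Nmrk2 on the opposite strand. It had 98 and 71 reads in non-infarcted and infarcted wild-type ventricle and 104 and 26 in the libraries labelled Neil3-/-, between 2.10% and 6.10% of the Nmrk2 reads. Whether counting used strand is not given in the sources used here, and without strand the reads of the overlapping genes cannot be told apart. Its genotype ratio was 0.347 (0.213 to 0.551) in infarcted ventricle, near that of Nmrk2, and 1.11 (0.831 to 1.47) in non-infarcted ventricle, unlike that of Nmrk2. Over the 10 nearest chromosome neighbours that reached 1 RPKM in any library, this antisense gene included, genotype ratios ran from 0.347 to 1.07 in infarcted ventricle. In non-infarcted ventricle they ran from 0.714 (Atcay) to 1.82 (Matk). Matk was under 1 RPKM in both non-infarcted libraries, at 0.465 RPKM in wild type and 0.847 RPKM in the labelled knockout. Its ratio there is loosely bounded (0.857 to 4.07). Nmrk2 lay below all 10 neighbours in both regions. It was chosen for its genotype difference, so nothing is read from this place.

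The genes with a profile most like Nmrk2 were Pcp4l1, Cav3, Pirt, Sv2a and Apod. Likeness was the Euclidean distance between log2(RPKM + 1) values centred on each gene over the 4 libraries, among 9642 genes that reached 5 RPKM in any library. The 5 distances ran from 0.57 to 0.76, against a median of 1.70 and a 1st percentile of 1.06 over all genes ranked. Cav3, the muscle caveolin, had 84.2 and 85.8 RPKM in non-infarcted and infarcted wild-type ventricle and 63.9 and 38.9 RPKM in the libraries labelled Neil3-/-. As for Nmrk2, its wild-type values lay close together and both labelled knockout values lay below them. Pcp4l1, the closest, had 88.9, 48.6, 40.8 and 14.8 RPKM in the same order, so it was already lower in infarcted than in non-infarcted wild-type ventricle. Pirt, Sv2a and Apod, all at 13.2 RPKM or less, also had wild-type infarct ratios well under 1, from 0.462 to 0.521. The closest of the other NAD metabolism genes ranked was Nmnat3, at a distance of 1.22.

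Nmrk1, the more widely expressed nicotinamide riboside kinase (Entrez 225994, chromosome 19), was low throughout. It had 69 reads and 2.83 RPKM in wild-type non-infarcted ventricle, 86 reads and 3.04 RPKM in wild-type infarcted ventricle, and 62 reads and 2.65 RPKM in the non-infarcted library labelled Neil3-/-. Its highest value, 117 reads and 3.93 RPKM, was in the infarcted library labelled Neil3-/-, where Nmrk2 was lowest. Per length, Nmrk2 stood 40.1-fold and 34.9-fold above Nmrk1 in wild-type non-infarcted and infarcted ventricle. It stood 24.5-fold and 7.30-fold (6.02 to 8.92) above it in the non-infarcted and infarcted libraries labelled Neil3-/-. The Nmrk1 genotype ratio in infarcted ventricle was 1.29 (0.968 to 1.72), an interval that includes no difference. Its infarct ratio was 1.48 (1.08 to 2.05) between the libraries labelled Neil3-/- and 1.08 (0.774 to 1.5) in wild type, the latter falling below 1 under either alternative scaling.

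Nampt, the rate-limiting enzyme of NAD synthesis from nicotinamide (Entrez 59027, chromosome 12), was lower in infarcted ventricle in both genotypes. It had 1979 reads and 29.2 RPKM in wild-type non-infarcted ventricle and 1334 reads and 17.0 RPKM in wild-type infarcted ventricle. In the libraries labelled Neil3-/- it had 2089 reads and 32.1 RPKM in non-infarcted ventricle and 1657 reads and 20.0 RPKM in infarcted ventricle. The infarct ratios, 0.582 (0.542 to 0.624) and 0.623 (0.584 to 0.665), were much alike. Between genotypes Nampt was slightly higher in the labelled knockout library, 1.18-fold (1.10 to 1.27) in infarcted and 1.10-fold (1.03 to 1.17) in non-infarcted ventricle. So, per length, Nmrk2 stood 3.88-fold and 6.25-fold above Nampt in wild-type non-infarcted and infarcted ventricle, but 2.02-fold and 1.43-fold above it in the libraries labelled Neil3-/-.

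The Nmnat enzymes, which turn nicotinamide mononucleotide into NAD in the nucleus (Nmnat1) and, in most accounts, in mitochondria (Nmnat3), were also lower in infarcted ventricle. Nmnat1 (chromosome 4) had 144 reads and 10.1 RPKM in wild-type non-infarcted ventricle, 101 reads and 6.13 RPKM in wild-type infarcted ventricle, and 145 reads and 10.6 RPKM and 102 reads and 5.87 RPKM in the non-infarcted and infarcted libraries labelled Neil3-/-. Nmnat3 (chromosome 9) had 195, 136, 180 and 108 reads in that order, or 6.06, 3.65, 5.83 and 2.75 RPKM. For each gene, both infarcted libraries lay below both non-infarcted ones. The Nmnat1 infarct ratios were 0.605 (0.465 to 0.786) and 0.552 (0.424 to 0.716) for wild type and the labelled knockout, and those of Nmnat3 were 0.602 (0.480 to 0.753) and 0.471 (0.368 to 0.601). In infarcted ventricle the genotype ratio was 0.958 (0.720 to 1.27) for Nmnat1 and 0.753 (0.579 to 0.977) for Nmnat3.

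Nadsyn1, the NAD synthetase that ends the nicotinic acid and tryptophan routes (chromosome 7), hardly differed between libraries. It had 86 and 99 reads in non-infarcted and infarcted wild-type ventricle and 74 and 103 reads in the libraries labelled Neil3-/-, all between 1.97 and 2.19 RPKM. Its infarct ratios were 0.993 (0.737 to 1.34) in wild type and 1.09 (0.803 to 1.49) between the libraries labelled Neil3-/-, the latter below 1 under either alternative scaling. At this depth, a difference within these intervals was not detectable.

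Cd38, an NAD glycohydrolase abundant on immune cells (Entrez 12494, chromosome 5), was higher in infarcted ventricle in both genotypes. It had 357 reads and 8.00 RPKM in non-infarcted and 780 reads and 15.1 RPKM in infarcted wild-type ventricle. In the libraries labelled Neil3-/- it had 354 reads and 8.27 RPKM and 1017 reads and 18.7 RPKM. The non-infarcted values of the genotypes lay within each other's intervals. The infarct ratio was 1.89 (1.66 to 2.14) in wild type and 2.26 (2.0 to 2.55) between the libraries labelled Neil3-/-, and the infarcted genotype ratio was 1.24 (1.13 to 1.36). Macrophage and neutrophil markers were also higher in infarcted ventricle, as given above, and their part was not tested.

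Sirt3, the main mitochondrial deacetylase (Entrez 64384, chromosome 7), went the other way. It had 301 reads and 13.6 RPKM in wild-type non-infarcted ventricle and 180 reads and 7.03 RPKM in wild-type infarcted ventricle. The libraries labelled Neil3-/- had 318 reads and 15.0 RPKM in non-infarcted and 145 reads and 5.37 RPKM in infarcted ventricle, the highest and the lowest of the 4. Its infarct ratios were 0.516 (0.427 to 0.623) and 0.358 (0.292 to 0.437), and the ratio between them 0.694 (0.530 to 0.908). In both infarct comparisons Sirt3 lay inside the range of the 12 cardiomyocyte markers, above 9 and below 3 of them. Scaled to those markers, its log2 infarct ratio between the libraries labelled Neil3-/- turned to 0.60.

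Sirt1, a mainly nuclear deacetylase (Entrez 93759, chromosome 10), stayed between 3.77 and 4.89 RPKM. It had 253 and 269 reads (4.33 and 3.98 RPKM) in non-infarcted and infarcted wild-type ventricle and 211 and 349 reads (3.77 and 4.89 RPKM) in the libraries labelled Neil3-/-. The infarcted library labelled Neil3-/- was the highest. The infarct ratio was 0.918 (0.770 to 1.09) in wild type and 1.3 (1.09 to 1.55) between the libraries labelled Neil3-/-, and the ratio between them 1.42 (1.11 to 1.80). As log2(RPKM + 1) the ratio between the libraries labelled Neil3-/- was 0.31, near the median of 0.24 over all genes. Per length, Sirt3 stood 3.14-fold and 3.98-fold above Sirt1 in non-infarcted wild-type and labelled knockout ventricle. The ratio was 1.77-fold in infarcted wild-type ventricle and 1.10-fold (0.898 to 1.34) in the infarcted library labelled Neil3-/-, where the levels could not be told apart by counting.

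Nnmt, which methylates nicotinamide and so withdraws it from NAD synthesis (Entrez 18113, chromosome 9), was higher in infarcted ventricle. It had 75 reads and 5.28 RPKM in non-infarcted and 150 reads and 9.11 RPKM in infarcted wild-type ventricle. The libraries labelled Neil3-/- had 89 reads and 6.53 RPKM and 166 reads and 9.56 RPKM. The infarct ratio was 1.73 (1.3 to 2.31) in wild type and 1.46 (1.13 to 1.92) between the libraries labelled Neil3-/-. As log2(RPKM + 1) these were 0.69 and 0.49, against medians of 0.21 and 0.24 over all genes. The latter ratio lay above those of 68.9% of genes. The genotype intervals, 0.836 to 1.32 in infarcted and 0.899 to 1.70 in non-infarcted ventricle, include no difference.

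**Figure D3:**
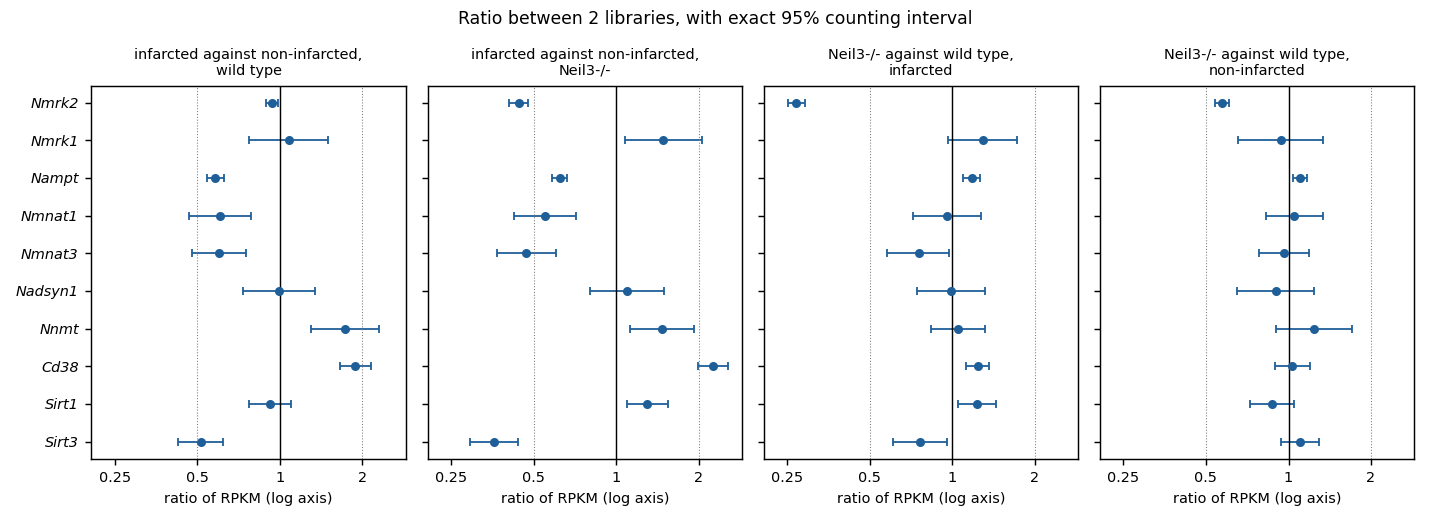
Ratio of RPKM (log axis) of each of the 10 NAD metabolism genes in the comparisons, with 95% counting intervals and 1 library per group. Nampt, Nmnat1, Nmnat3 and Sirt3 lie below 1 and Nnmt and Cd38 above 1 in both infarct comparisons. Nmrk2 stands apart in both genotype comparisons, on which it was chosen.

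Counts over the 10 genes are read beside those over all genes that reached 1 RPKM in either library of a comparison, on the log2(RPKM + 1) scale. In wild type, 0 of 10 were at least 2-fold higher in infarcted ventricle, where 6.21% of 12515 genes were, and 0 of 10 were at least 2-fold lower, where 3.6% were. At 1.5-fold, 2 were higher (Nnmt and Cd38, against 21.6% of genes) and 4 were lower (Nampt, Nmnat1, Nmnat3 and Sirt3, against 9.56%). Between the libraries labelled Neil3-/-, 1 of 10 was at least 2-fold higher in infarcted ventricle (Cd38, against 8.2% of 12563 genes) and 2 were lower (Nmrk2 and Sirt3, against 6.07%). At 1.5-fold, 1 was higher (Cd38, against 25%) and 5 were lower, the 4 of wild type and Nmrk2, against 12.4%. The median log2 infarct ratio of the 10 genes was -0.10 in wild type and -0.29 between the libraries labelled Neil3-/-, against 0.21 and 0.24 over all genes.

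Between genotypes, Nmrk2 alone of the 10 passed either threshold in either region. In infarcted ventricle 1 of 10 was at least 2-fold lower in the library labelled Neil3-/- (0.241% of 12464 genes) and 0 were higher (0.249%). At 1.5-fold the same numbers held, against 1.55% of genes lower and 1.51% higher. In non-infarcted ventricle 0 of 10 were at least 2-fold lower (0.188% of 12226 genes) or higher (0.254%), and at 1.5-fold 1 was lower (0.613%) and 0 higher (1.14%). For the difference of the infarct ratios 1 of 10 was at least 2-fold lower (0.228% of 12716 genes) and 0 higher (0.299%), with the same numbers at 1.5-fold (1.55% and 1.12%). Nmrk2 was chosen on these contrasts, so nothing is read from its passing. The other 9 genes had genotype ratios from 0.753 (Nmnat3) to 1.29 (Nmrk1) in infarcted ventricle and from 0.869 (Sirt1) to 1.24 (Nnmt) in non-infarcted ventricle. The members' median log2 genotype ratio was 0.02 in infarcted ventricle, as over all genes.

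**Figure D4:**
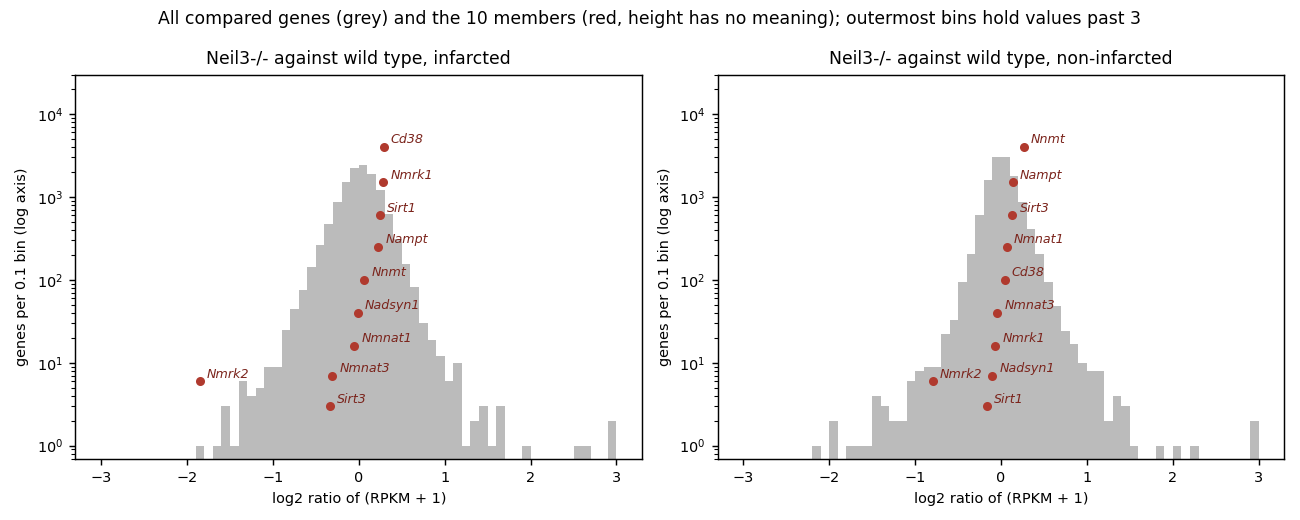
Number of genes by log2 ratio of (RPKM + 1), library labelled Neil3-/- over wild type, in each region, on a log axis, with the 10 NAD metabolism genes as red points whose height has no meaning. Nmrk2 sits at -1.85 in infarcted and -0.80 in non-infarcted ventricle, while the other 9 lie near 0.

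The wider NAD pathway was taken as a list of 72 genes in 7 roles, the 10 genes included. Of these, 62 reached 1 RPKM and were compared in wild type and 63 between the libraries labelled Neil3-/-. In wild type 3 were at least 2-fold higher in infarcted ventricle and 6 lower, beside 6.21% and 3.6% of all genes, and the median log2 ratio was 0.04 against 0.21 over all genes. Between the libraries labelled Neil3-/- 4 were higher and 14 lower, beside 8.2% and 6.07% of all genes, with a median of -0.02 against 0.24. Between genotypes in infarcted ventricle 0 of 63 were higher and 1 lower, Nmrk2, and in non-infarcted ventricle 0 of 61 passed in either direction. At 1.5-fold, 5 were lower in infarcted ventricle in the library labelled Neil3-/-: Nmrk2, the NAD-linked glycerol phosphate dehydrogenase Gpd1 (0.551), the ADP-ribosyltransferase family gene Art3 (0.533), the nucleoside transporter Slc29a2 (0.542) and the aspartate aminotransferase Got1 (0.644). These 5 were named after their values were seen.

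The group with the lowest medians was the redox shuttles, enzymes and carriers that move reducing equivalents between NADH pools. Of 12 genes, 5 were at least 2-fold lower in infarcted ventricle in wild type and 9 between the libraries labelled Neil3-/-, and 0 were higher, with medians of -0.90 and -1.26. Over all genes 3.6% and 6.07% were lower and 6.21% and 8.2% higher, with median log2 ratios of 0.21 and 0.24. The transhydrogenase Nnt had 146 and 58.1 RPKM in non-infarcted and infarcted wild-type ventricle and 144 and 39.3 RPKM in the libraries labelled Neil3-/-. The lactate dehydrogenase subunit Ldhb had 601, 232, 601 and 155 RPKM in that order. Both were near equal between genotypes in non-infarcted ventricle and lower in the labelled knockout library in infarcted ventricle, by ratios of 0.677 and 0.670. Reads covered 74.8% to 79.8% of the Nnt model over the libraries, against 97.5% to 99.7% of the Ldhb model. The infarct ratios of Mdh1 (0.396 and 0.326) and Slc25a11 (0.474 and 0.359) followed the same order. In infarcted ventricle 11 of 12 were lower in the library labelled Neil3-/-, with a median of -0.37, where the median of the cardiomyocyte markers was -0.62. Scaled to those markers, the shuttles' median log2 infarct ratio turned to 0.55 in wild type and 0.67 between the libraries labelled Neil3-/-, that is, higher in infarcted ventricle. Their median log2 genotype ratio in infarcted ventricle turned to 0.25, with 10 of 12 above 0.

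Among the sirtuins, which remove acyl groups from proteins at the cost of NAD, 0 of 7 passed 2-fold in wild type and 2 were lower between the libraries labelled Neil3-/-, Sirt3 and Sirt5. Sirt5, a mitochondrial desuccinylase, had 18.8 and 9.44 RPKM in non-infarcted and infarcted wild-type ventricle and 18 and 6.66 RPKM in the libraries labelled Neil3-/-. The nuclear sirtuins Sirt7 (1.76-fold and 1.70-fold) and Sirt6 (1.51-fold and 1.31-fold) were higher in infarcted ventricle, and mitochondrial Sirt4 was lower (0.710 and 0.599). Sirt2, mainly cytosolic, had log2 infarct ratios of -0.03 and -0.25. Scaled to the cardiomyocyte markers, all 7 sirtuins were higher in infarcted ventricle in both genotypes.

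Of 18 ADP-ribosylation genes, 1 was at least 2-fold lower in infarcted ventricle in wild type and 2 between the libraries labelled Neil3-/-, with 0 higher. The median log2 ratios, 0.17 and 0.22, lay near those of all genes. They came to -0.04 and 0.01 with TMM factors, and to -0.04 and -0.01 with median-ratio factors. Art1, a muscle ADP-ribosyltransferase, had 101 and 22.0 RPKM in wild type and 104 and 24.4 RPKM in the libraries labelled Neil3-/-, so the genotypes were alike. Art3 had 131 and 69.9 RPKM in wild type and 105 and 37.3 RPKM in the libraries labelled Neil3-/-, lower in the labelled knockout library in both regions, as Nmrk2 was. Parp2, a DNA damage sensor, had infarct ratios of 1.27 and 1.70, and the hydrolase Adprhl2 of 1.61 and 1.19, the latter just under 1 with median-ratio factors.

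The other glycohydrolase with reads enough to compare, Bst1, had 2.41 and 8.01 RPKM in wild type and 3.00 and 10.8 RPKM in the libraries labelled Neil3-/-. It was 3.32-fold and 3.61-fold higher in infarcted ventricle, as its relative Cd38 was higher. Sarm1 lay below 1 RPKM in every library.

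Of the other synthesis genes, the NAD kinase gene Nadk, which makes NADP, had 18.7 and 35.9 RPKM in wild type and 19.5 and 36.5 RPKM in the libraries labelled Neil3-/-. Naprt, the first enzyme of the nicotinic acid route, was lower in infarcted ventricle, with ratios of 0.566 and 0.528. Pnp, which can cleave nicotinamide riboside, was 2.27-fold and 2.30-fold higher. Pnp has a near copy, Pnp2, and reads covered only 40.6% to 46.0% of the Pnp model, so its level is uncertain. Haao, of the tryptophan route, had 5 and 15 reads in wild type and 3 and 23 reads in the libraries labelled Neil3-/-, and its ratio between the latter, 6.02 (1.82 to 31.3), is loosely bounded.

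Among 9 precursor and transport genes compared, 1 was at least 2-fold higher in infarcted ventricle in each genotype. This was Enpp1, an ectonucleotide pyrophosphatase, with 11.7 and 26.2 RPKM in wild type and 16.8 and 39.4 RPKM in the libraries labelled Neil3-/-. Its genotype ratio was 1.5 in infarcted and 1.43 in non-infarcted ventricle, opposite to Nmrk2. Nt5e, the surface nucleotidase that can release nicotinamide riboside, was 1.81-fold and 1.64-fold higher in infarcted ventricle, and Enpp3 1.85-fold and 1.95-fold. The NADH hydrolase family gene Nudt13 was lower (0.624 and 0.518). For nicotinamide clearance, Aox1, an oxidase that acts after Nnmt, was lower (0.503 and 0.548) while Nnmt was higher.

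**Figure D5:**
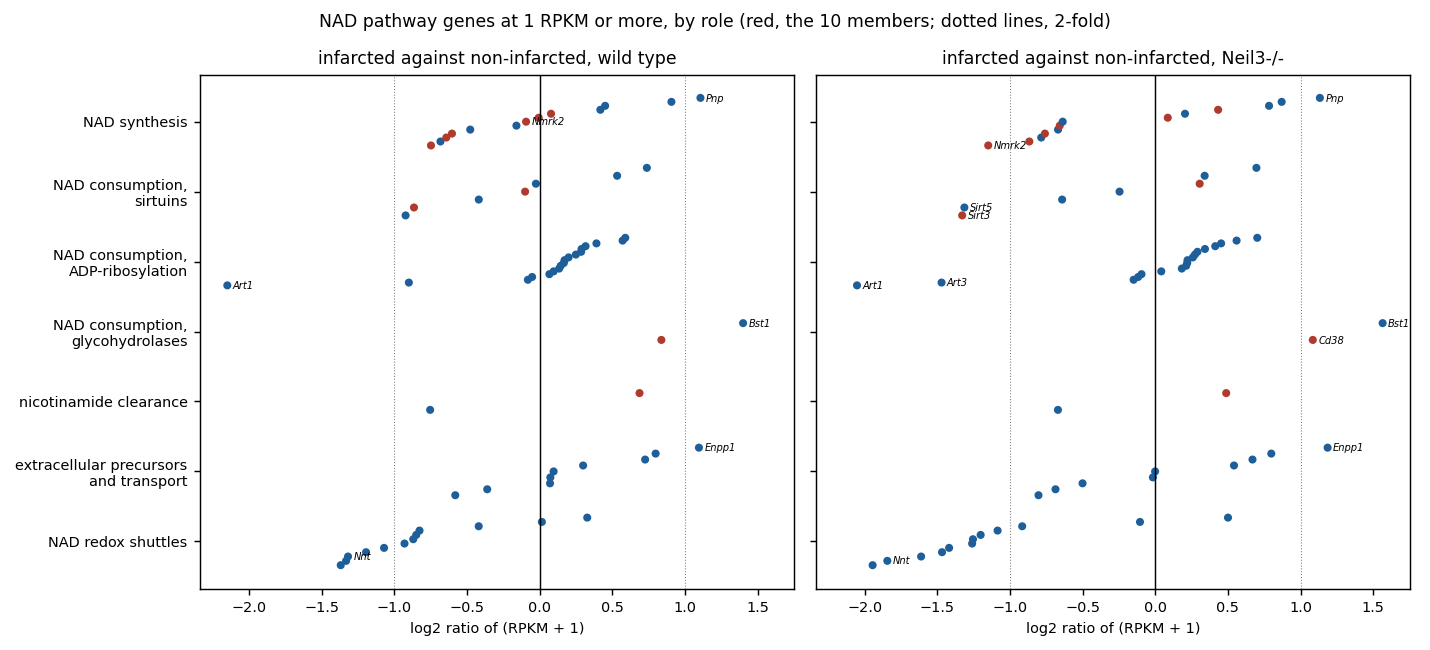
Infarcted over non-infarcted log2 ratio of (RPKM + 1) of the NAD pathway genes by role, in wild type and between the libraries labelled Neil3-/-, with red points for the 10 genes, dotted lines at 2-fold and height within a role without meaning. The redox shuttles lie mostly left of 0 (medians -0.90 and -1.26), and Bst1 and Cd38 lie right of it.

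Scaling matters for the infarct comparisons. Alternative factors computed from the counts (TMM and median-ratio) moved the median log2 infarct ratio of all genes by -0.20 in wild type and by -0.21 and -0.23 between the libraries labelled Neil3-/-. Among genes at least 2-fold apart, the share higher in infarcted ventricle then went from 63.3% to 37.2% and 36.5% in wild type, and from 57.5% to 34.1% and 32.0% between the libraries labelled Neil3-/-. Under these factors Sirt3 passed 2-fold lower in wild type. Between the libraries labelled Neil3-/-, Nmnat3 passed 2-fold lower and Cd38 no longer passed 2-fold higher.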

How the data were processed

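Total RNA from 4 left ventricle samples was sequenced, 1 library per group. The authors deposited counts of unique reads for each Entrez gene, per the file headers. The authors' RPKM values, per the file headers, equalled reads divided by listed length and library total when recomputed. The deposited coverage, in percent, was read as the part of each gene model that has reads. The submitters' processing notes name build mm9. For the aligner, counter, annotation and strand setting, the answer is not given in the sources used here.

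Genes missing from a library's list were given 0 reads. Log2 ratios used RPKM + 1, and genes that reached 1 RPKM in either library were counted at 2-fold and 1.5-fold. Ratios of RPKM have exact 95% Clopper-Pearson intervals of the read share of both libraries (scipy 1.17.1). With 1 library per group, there are no tests and no p-values. TMM and median-ratio factors came from the counts (edgeR 4.0.16, factors only) as alternatives, beside another pseudocount, filters on low values, totals without ribosomal and small noncoding RNA, and scaling to cardiomyocyte markers. The counting was tested on simulated Poisson counts with planted fold changes. Those counts held no variation between mice, so they say nothing of it. RefSeq matched 17454 of 17550 genes for names and chromosomes, and gave a promoter for 9 of 10 members.

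The members, the NAD pathway list and the marker lists were chosen with earlier results of these data known. Other named genes were, in each role, up to 4 with the largest log2 ratio in any comparison, and the 5 most like Nmrk2. The 1.5-fold threshold was added after seeing the data.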

Additional observations from a re-analysis of the deposited data

Results flagged for a closer look

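Some values lay on opposite sides of 1 in the 2 contexts of the same comparison. None of these differences was tested, since each group was 1 library. The infarct ratio of Sirt1 was 1.3 (1.09 to 1.55) between the libraries labelled Neil3-/- and 0.918 (0.770 to 1.09) in wild type. The former was 0.31 as log2(RPKM + 1), near the median of 0.24 over all genes. The genotype ratio of Sirt1 was 1.23 (1.05 to 1.45) in infarcted and 0.869 (0.721 to 1.05) in non-infarcted ventricle. The genotype ratio of Sirt3 was 0.764 (0.610 to 0.956) in infarcted and 1.10 (0.938 to 1.29) in non-infarcted ventricle. For each of these, 1 of the 2 counting intervals includes no difference. The ratio of the infarct ratios was 1.42 (1.11 to 1.80) for Sirt1 and 0.694 (0.530 to 0.908) for Sirt3.

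For the others both intervals include it. The genotype ratio of Nmrk1 was 1.29 in infarcted and 0.937 in non-infarcted ventricle, and that of Nmnat1 was 0.958 and 1.05. The infarct ratio of Nadsyn1 was 1.09 between the libraries labelled Neil3-/- and 0.993 in wild type.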

How the results depend on the processing

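Of 50 values of the 10 genes over the comparisons, 50 moved by less than their counting interval with a pseudocount of 0.1 RPKM or totals without ribosomal and small noncoding RNA, and 44 with TMM or median-ratio factors. Scaling to cardiomyocyte markers gave 14 such values. It turned the sign of 21 values, 2 of them values at least 2-fold apart before. The log2 ratio of Nmrk2 became -0.32 with TMM and -0.32 with median-ratio factors in the wild-type infarct comparison, and -1.38 and -1.40 between the libraries labelled Neil3-/-. With cardiomyocyte scaling it became 1.35, 0.78 (turned), -1.23 for genotype in infarcted ventricle and -0.58 for the difference, and Sirt3 between the libraries labelled Neil3-/- turned to 0.60.

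With the pseudocount of 0.1 RPKM, 1262 genes were at least 2-fold higher and 633 lower in infarct in wild type, against 777 and 450, and 1578 and 980 between the libraries labelled Neil3-/-, against 1030 and 762. Genotype counts became 70 higher and 71 lower in infarcted ventricle, 70 and 48 in non-infarcted ventricle, and 99 and 100 for the difference. With a 5 RPKM filter these were 18 and 14, 16 and 9, and 19 and 9, where fewer genes are compared. Without ribosomal and small noncoding RNA they were 13 and 19 in infarcted ventricle and 17 and 13 for the difference. This setting left 150 such genes out of the counted genes as well as out of the totals. The share of the fall that these genes make up was not tested. TMM and median-ratio factors gave 455 and 448 genes higher and 769 and 781 lower in wild type, and 549 and 517 higher and 1060 and 1100 lower between the libraries labelled Neil3-/-. NAD pathway genes then numbered 1 higher and 13 lower in wild type and 1 higher between the libraries labelled Neil3-/-, with 1 of the 10 genes lower in wild type and 0 higher between the libraries labelled Neil3-/-. Nmnat3 joined the genes at least 2-fold lower between the libraries labelled Neil3-/-. These follow from the shift of all infarct ratios. At 1.5-fold, 10 NAD pathway genes were higher and 18 lower in wild type, 10 and 25 between the libraries labelled Neil3-/-, 0 and 5 between genotypes in infarcted ventricle, and 0 and 1 in non-infarcted ventricle. With TMM the 5 genes most like Nmrk2 were the same 5, and with the pseudocount 4 were shared. No paired analysis was possible because each group had 1 library.

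With 1 library per group, no setting measures variation between mice. Members with few reads, such as Nmrk1 and Nadsyn1, have wide counting intervals.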
